A study of Mus musculus with 24 samples.

Results

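Mural cells are the contractile and supporting cells that wrap blood vessels. The 10 genes described here mark pericytes and vascular smooth muscle, and they were taken by name as known markers, in a choice made with earlier results of these data known. They are 3 pericyte genes (Abcc9, Kcnj8 and Rgs5), 3 contractile genes of smooth muscle (Acta2, Tagln and Myh11) and 4 further mural genes (Pdgfrb, Anpep, Notch3 and Des), out of 49315 genes in the deposited count tables. All 10 passed the filter on low counts that left 22280 genes for testing. The comparison the choice was made for sets the 3 pericyte genes against the 3 contractile genes.

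In brain, pericytes sit on capillaries inside the vessel's basement membrane and help to keep the blood-brain barrier closed, while smooth muscle cells ring arterioles and arteries and set their diameter. Endothelial cells secrete PDGF-B, which recruits mural cells through the receptor encoded by Pdgfrb, and they present Jagged ligands to the Notch3 receptor of mural cells. Contractile genes are switched on by serum response factor together with myocardin-family coactivators, whereas brain pericytes carry little smooth muscle actin and are better recognised by a potassium channel and by Rgs5. In gliomas, mural cells can be loosely attached or unevenly spread along tumour vessels.

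The tumours were grown in mouse brain from CT-vIII cells, made by transducing the mouse glioma line CT-2A with mouse EGFR variant III and firefly luciferase, and all 24 tumours share that line, the implanted 200000 cells and a pump in the brain. Osmotic pumps delivered treatment into the tumour at 0.5 µl/h for 72 h, starting 6 days after implantation. There were 4 treatments: D2C7-IT + αCD40 (called the combination below), D2C7-IT alone (0.2 µg), αCD40 alone, and vehicle, which was phosphate-buffered saline carrying 2% mouse serum albumin and a control antibody, rat IgG2a (100 µg). D2C7-IT is an immunotoxin directed at EGFR and its variant III, and αCD40 is an antibody to CD40, a receptor that activates antigen-presenting cells. Tumours were taken 3 days after pump removal (day 3) or at pump removal (day 0), with 3 tumours in each of 8 groups. The αCD40 dose is given only as 10 to 300 µg, so the αCD40 and combination groups may mix doses, and the sources used here give neither mouse strain nor age. Nothing in the labels says more about the replicates than that they are separate tumours, so p-values measure the spread between these tumours.

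Polyadenylated RNA came from flash-frozen tissue that was not sorted. In such bulk samples, fewer cells of a type and less RNA per cell cannot be told apart. Libraries held 24.7 to 48.1 M counted reads (M, 1e+06). Levels below are counts per 1e+06 counted reads (CPM), and for comparisons between genes they are also divided by transcript length (RPKM). Fold changes are log2 ± SE from edgeR over all 24 libraries, and a gene counts as called where p, adjusted across every tested gene, is under 0.05. An SD is over the 3 tumours of a group.

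The tissue label was checked first, because 3 libraries stood apart from the other 21. Egfr, whose counts mix transgene and host reads, held 283 and 343 CPM in vehicle day 3 replicates 2 and 3 and 330 CPM in αCD40 day 3 replicate 1, against 13.1 to 50.8 CPM elsewhere. A list of 6 neuron genes was at 7.0 to 9.34 mean log2 CPM over the 24 libraries, so every library also held brain tissue. No day 0 tumour, no D2C7-IT tumour and no combination tumour was among the 3. Results that use the vehicle or αCD40 tumours of day 3 are therefore followed by the fold changes without these libraries. Leaving them out was chosen after the data were seen, and it leaves vehicle day 3 with replicate 1 alone, which is then assumed to vary like the other groups. The 6 cell cycle markers lay below vehicle at day 3, at -4.45 to -3.21 in the combination and -4.38 to -3.43 in D2C7-IT, none called. In the 21 other libraries all 6 lay above vehicle, with medians of 1.56 and 1.61. The share of tumour cells in these 21 was not tested, so the word tumour below names the sample taken.

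Abcc9 (chromosome 6, 142587862 to 142702315, minus strand, GRCm38) and Kcnj8 (chromosome 6, 142564837 to 142571614, minus strand) lie next to each other, 16248 bases apart, with no coding gene between them. They encode the sulfonylurea receptor and the pore of an ATP-sensitive potassium channel, so the pair forms a single channel in mural cells. Rgs5 (chromosome 1, 169655501 to 169695813, plus strand) encodes a brake on G protein signalling. Acta2 (chromosome 19, 34241090 to 34255590, minus strand) encodes smooth muscle α-actin. Tagln (chromosome 9, 45929619 to 45936058, minus strand) encodes transgelin, an actin-binding protein. Myh11 (chromosome 16, 14194535 to 14291372, minus strand) encodes the smooth muscle myosin heavy chain.

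The 250 bases before the RefSeq start site of the 3 pericyte genes and of Acta2 are shown because these are the genes that the comparison sets against each other (RefSeq, GRCm38.p6, each read along the gene). RefSeq entries matched 7 of the 10 genes. Capitals mark matches, on either strand, to a CArG box (the site of serum response factor: CC, then 6 bases that are A or T with at most 1 exception, then GG), to the MCAT element CATTCC (the site of TEAD factors), to TGGGAA (the core site of RBPJ, the Notch effector) or to the TATA box TATAAA.
Abcc9 chr6:142702275-142702524 (minus strand): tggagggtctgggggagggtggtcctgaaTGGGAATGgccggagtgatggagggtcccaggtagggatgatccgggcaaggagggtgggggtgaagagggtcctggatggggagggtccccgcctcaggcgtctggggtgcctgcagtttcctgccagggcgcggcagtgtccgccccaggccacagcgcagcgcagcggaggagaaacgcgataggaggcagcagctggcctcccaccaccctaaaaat
Kcnj8 chr6:142571615-142571864 (minus strand): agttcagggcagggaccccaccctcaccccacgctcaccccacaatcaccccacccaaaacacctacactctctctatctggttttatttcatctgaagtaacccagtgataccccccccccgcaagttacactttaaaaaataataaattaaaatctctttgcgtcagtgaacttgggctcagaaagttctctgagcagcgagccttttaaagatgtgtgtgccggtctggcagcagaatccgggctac
Rgs5 chr1:169655251-169655500 (plus strand): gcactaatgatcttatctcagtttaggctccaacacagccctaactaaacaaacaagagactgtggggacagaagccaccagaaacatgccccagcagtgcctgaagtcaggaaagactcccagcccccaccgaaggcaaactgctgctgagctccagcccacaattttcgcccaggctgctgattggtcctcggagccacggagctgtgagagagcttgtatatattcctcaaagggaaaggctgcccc
Acta2 chr19:34255374-34255623 (minus strand): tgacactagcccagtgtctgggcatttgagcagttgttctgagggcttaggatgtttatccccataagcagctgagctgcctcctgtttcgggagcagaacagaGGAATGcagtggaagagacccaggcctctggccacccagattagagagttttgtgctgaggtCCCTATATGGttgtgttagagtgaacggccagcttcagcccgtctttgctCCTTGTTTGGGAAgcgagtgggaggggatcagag

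The 3 pericyte promoters shared no marked motif. Acta2 held a CArG box with 1 exception at 84 to 75 and another at 34 to 25 bases before its start. It also held CATTCC on the opposite strand at 146 to 141 bases, and TGGGAA at 27 to 22 bases, overlapping the nearer CArG box. Abcc9 held TGGGAA 221 to 216 bases before its start, overlapping CATTCC on the opposite strand at 219 to 214. Kcnj8 and Rgs5 held none of the 4 motifs. Among 32851 promoters of the same length, 12.6% held CATTCC, 21.6% held TGGGAA, 12.4% held TATAAA and 8.59% held a CArG box, or 1.47% with no exception allowed. The base composition differed too, with 66.8% G or C before Abcc9, 49.2% before Kcnj8, 53.6% before Rgs5 and 53.6% before Acta2. A match is a description of the letters and not of binding.

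The other mural genes are a pair of receptors, a surface enzyme and a filament protein. Pdgfrb (chromosome 18, 61045150 to 61085061, plus strand) encodes the PDGF-B receptor. Notch3 (chromosome 17, 32120820 to 32166852, minus strand) encodes the Notch receptor of mural cells. Anpep (chromosome 7, 79821803 to 79861059, minus strand) encodes the aminopeptidase CD13, which myeloid cells also carry. Des (chromosome 1, 75360329 to 75368579, plus strand) encodes the filament protein desmin, which skeletal muscle shares.

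Per length, the mural genes covered a wide range of levels. Rgs5 had the highest median over the 24 tumours, 20.3 RPKM. Pdgfrb at 5.72 and Acta2 at 5.18 RPKM came next, followed by Notch3 at 3.79, Tagln at 2.76 and Anpep at 2.40. Kcnj8 at 1.90 and Abcc9 at 1.5 RPKM, the partners of the channel, were at similar levels, and Myh11 at 1.15 and Des at 0.722 RPKM were lowest. The smallest count behind any value was 55 reads, for Des.

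Tagln varied most, 23.0-fold between its lowest and highest tumour, and Notch3 least, 2.25-fold. The counts of Tagln share ground with other transcripts: the antisense gene Gm48529 overlaps 1241 of its exon bases and the coding gene Pcsk7 108, and the library kit does not mark strand. Gm48529 held 0.774 to 4.22 CPM over the tumours, and Tagln 12.6 to 40.6 CPM in its 7 highest tumours. Of windows of 50 bases in GENCODE M21 transcripts, 0.33% in Acta2 and 0.39% in Myh11 also occur in other genes, and none in Kcnj8, Rgs5, Pdgfrb or Anpep. The share was 1.95% in Abcc9, 4.96% in Notch3, nearly all of it with the antisense gene Gm17276, and 5.81% in Des, with Gm15179. It was largest in Tagln, where 47.56% of windows also occur in other genes and 43.81% in Gm48529.

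At day 3 the pericyte genes were, by group mean, highest in the combination tumours and next highest in the D2C7-IT tumours. Abcc9 held 16.5, 18.7 and 18.7 CPM in the combination tumours, 20.9, 17.2 and 11.6 CPM in D2C7-IT tumours, 7.36, 13.3 and 11.8 CPM in αCD40 tumours, and 10.4, 9.71 and 7.76 CPM in vehicle tumours. Every combination and D2C7-IT tumour was above every vehicle tumour. Kcnj8 held 6.69, 7.60 and 8.42 CPM in the combination, 8.13, 6.29 and 4.49 CPM in D2C7-IT, 3.92, 5.74 and 5.89 CPM in αCD40, and 3.66, 4.30 and 3.03 CPM in vehicle. Again no combination or D2C7-IT tumour overlapped vehicle, with D2C7-IT replicate 3 the closest. Rgs5 held 126, 123 and 139 CPM in the combination, 108, 108 and 94.6 CPM in D2C7-IT, 43.8, 97.5 and 115 CPM in αCD40, and 79.1, 61.5 and 58.6 CPM in vehicle. For Rgs5 the combination was above all other day 3 tumours, and the αCD40 tumour at 43.8 CPM was the lowest of the 24.

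**Figure D1:**
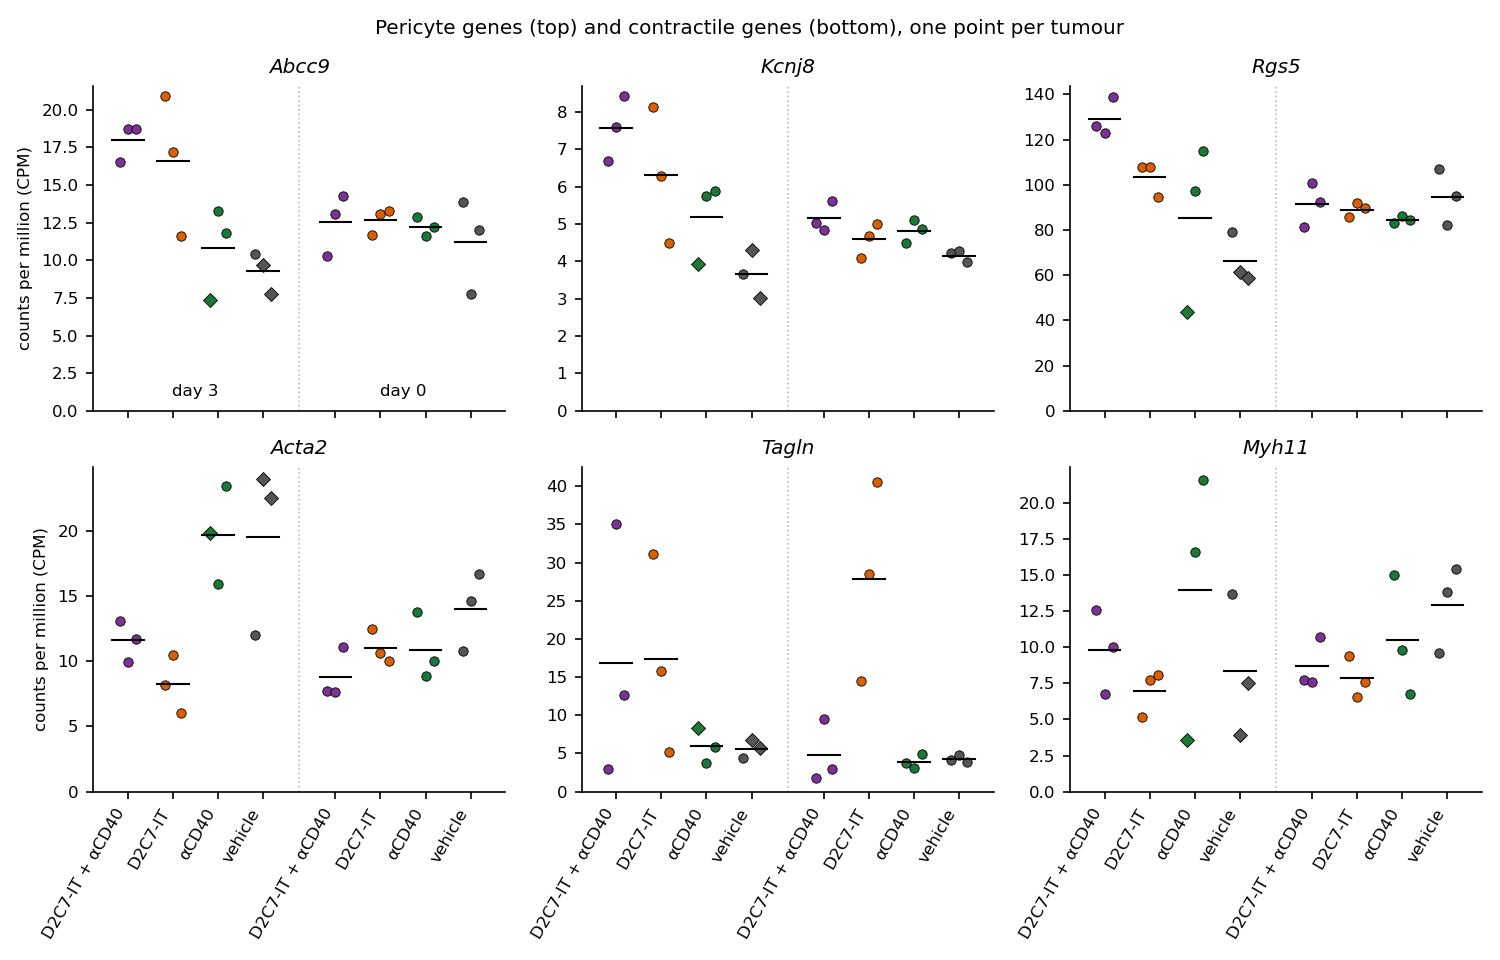
Level of the 3 pericyte genes (top row) and the 3 contractile genes (bottom row) in each tumour, in CPM on linear axes that start at 0, by treatment at day 3 (left of the dotted line) and day 0 (right). Bars are means of 3 tumours, and diamonds are the 3 libraries that stand apart by Egfr. At day 3 the combination and D2C7-IT points of Abcc9, Kcnj8 and Rgs5 lie above all vehicle points, while Tagln is scattered from 2.90 to 35.1 CPM in the combination.

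No mural gene passed edgeR's test against vehicle at day 3. For the combination, 0 of 10 were called, beside 0.0404% of all genes, and the smallest adjusted p was 0.082. Kcnj8 had the largest difference of the trio, 1.05 ± 0.22 (adjusted p = 0.082), followed by Rgs5 at 0.96 ± 0.23 (adjusted p = 0.10) and Abcc9 at 0.95 ± 0.25 (adjusted p = 0.11). For D2C7-IT, 0 of 10 were called, beside 0% of all genes. There Abcc9 differed by 0.83 ± 0.25 (adjusted p = 0.080), Kcnj8 by 0.78 ± 0.22 (adjusted p = 0.080) and Rgs5 by 0.64 ± 0.23 (adjusted p = 0.094). These 3 genes thus stood 1.56- to 2.07-fold above vehicle in both groups, short of the threshold.

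The share of all genes that differ is large in these comparisons, so counts of mural genes must be read against it. An unadjusted p under 0.05 was found for 6 of 10 mural genes in the combination, where 24% of all genes had one, and for 6 of 10 in D2C7-IT, where 28.2% had one. Without overlap between groups, 4 mural genes (the pericyte trio and Notch3) lay above vehicle in the combination, beside 8.06% of all genes, and 0 lay below, beside 7.45%. In D2C7-IT, 3 lay above (the pericyte trio), beside 7.43% of all genes, and 1 below (Acta2), beside 5.78%. DESeq2, run as an alternative, called 3 mural genes in the combination (Abcc9, Kcnj8 and Rgs5, adjusted p = 0.010, 0.00036 and 0.0058), beside 7.53% of all genes. In D2C7-IT it called Abcc9 and Kcnj8 as higher (adjusted p = 0.018 and 0.0094) and Acta2 as lower (adjusted p = 0.0019), beside 12.8% of all genes.

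The 3 libraries that stand apart moved these values unequally. Without them, the difference from the remaining vehicle tumour was 1.08 ± 0.27 for Kcnj8, 0.81 ± 0.31 for Abcc9 and 0.73 ± 0.16 for Rgs5 in the combination (adjusted p = 0.71, 0.71 and 0.62). In D2C7-IT it was 0.79 ± 0.27 for Kcnj8, 0.68 ± 0.31 for Abcc9 and 0.40 ± 0.16 for Rgs5 (adjusted p = 0.80 for each). The size of the Kcnj8 difference was thus the same with 1 vehicle tumour as with 3, and that of Rgs5 in D2C7-IT was over 1.5 times smaller in log2. Leaving out only vehicle replicate 1, the 1 vehicle tumour of low Egfr, put Abcc9, Kcnj8, Rgs5, Acta2 and Pdgfrb past the threshold in both groups (adjusted p = 0.0097 to 0.016 in the combination and 0.0070 to 0.025 in D2C7-IT), in fits that called 30.1% and 35.7% of all genes. Leaving out D2C7-IT replicate 3 put Abcc9 (1.03 ± 0.25, adjusted p = 0.043) and Kcnj8 (0.98 ± 0.22, adjusted p = 0.033) past it, beside 1.88% of all genes. Leaving out combination replicate 1 put Kcnj8 past it (1.13 ± 0.24, adjusted p = 0.047), beside 0.532% of all genes.

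**Figure D2:**
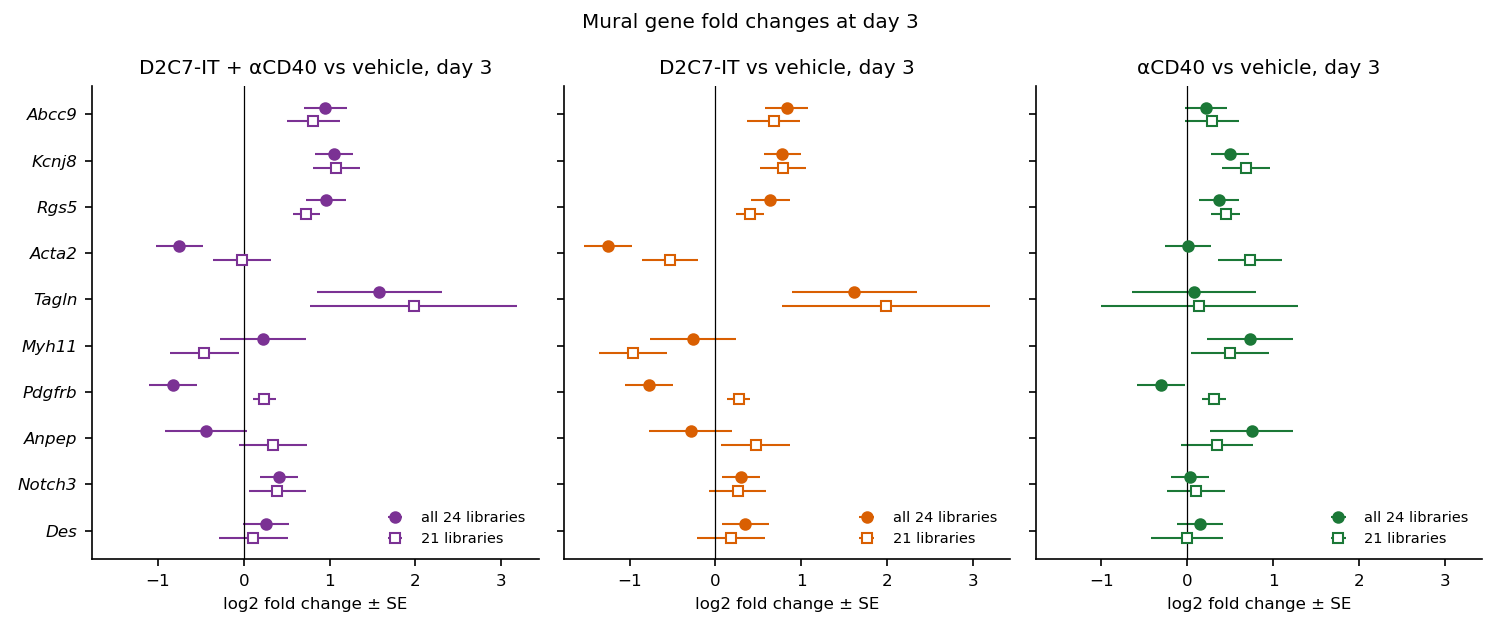
Log2 fold change of the 10 mural genes against vehicle at day 3 (edgeR, bars are ± SE), for the combination, D2C7-IT and αCD40 from left to right. Filled circles use all 24 libraries and open squares the 21 left without the libraries that stand apart. The pericyte genes stay right of 0 in both fits, while Pdgfrb is at -0.82 and -0.78 in the combination and D2C7-IT with all libraries and at 0.24 and 0.27 without the 3.

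Endothelial genes give a scale for the vessels themselves. The 10 endothelial markers were at 4.86 to 4.98 mean log2 CPM in the combination, 4.44 to 4.64 in D2C7-IT, 4.59 to 4.89 in αCD40 and 4.60 to 4.64 in vehicle at day 3. Against vehicle, 0 of 10 were called in either group, and the median difference was 0.28 in the combination and 0.00 in D2C7-IT (0.32 and -0.04 without the libraries that stand apart). The endothelial list therefore lay above vehicle in the combination and overlapped vehicle in D2C7-IT, while the pericyte trio lay above it in both. Pecam1 (0.51 ± 0.15, adjusted p = 0.11) and Ly6c1 (0.63 ± 0.19, adjusted p = 0.11) had the smallest p in the combination. In D2C7-IT these were Kdr (-0.93 ± 0.22, adjusted p = 0.080) and Flt1 (0.67 ± 0.23, adjusted p = 0.091), a pair of VEGF receptors that lay on opposite sides of vehicle. Without those libraries Pecam1 and Ly6c1 were at 0.83 and 0.37 in the combination, and Kdr and Flt1 at -0.58 and 0.21 in D2C7-IT, at adjusted p of 0.71 to 0.84.

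Other tissue in the samples differed between these groups as well. The 4 choroid plexus markers (Ttr, Kl, Folr1 and Clic6) summed to 22.8, 558 and 478 CPM in the combination, 4.98, 1180 and 31.7 CPM in D2C7-IT, 1.16, 21.2 and 26.9 CPM in αCD40 and 22.4, 2.43 and 13.7 CPM in vehicle at day 3, and none of the 4 was at 0 reads in any library. They were thus high in 2 combination tumours and 1 D2C7-IT tumour. The D2C7-IT tumour with the highest Abcc9 and Kcnj8 held 4.98 CPM of them. Combination replicate 1, at 22.8 CPM, had the lowest Abcc9 (16.5 CPM) and Kcnj8 (6.69 CPM) of its group. Its Rgs5, at 126 CPM, was neither the lowest nor the highest there. The 6 neuron markers lay above vehicle by a median of 0.49 in the combination and 0.71 in D2C7-IT, and the 5 oligodendrocyte markers by 0.91 and 0.39. Leaving out the libraries that stand apart gave neuron medians of -0.25 and -0.06, oligodendrocyte medians of 0.33 and -0.21 and choroid plexus medians of 3.83 and 3.8. The part of these tissues in the pericyte differences was not tested.

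The contractile genes did not move as a set at day 3. Acta2 held 13.1, 9.96 and 11.7 CPM in the combination, 8.19, 10.5 and 6.00 CPM in D2C7-IT, 19.8, 15.9 and 23.4 CPM in αCD40, and 12.0, 24 and 22.5 CPM in vehicle. The D2C7-IT tumours were all below vehicle, and vehicle replicate 1 lay among the combination tumours. Tagln held 2.90, 35.1 and 12.6 CPM in the combination, 31.1, 15.8 and 5.18 CPM in D2C7-IT, 8.27, 3.73 and 5.81 CPM in αCD40, and 4.40, 6.70 and 5.78 CPM in vehicle. High Tagln was thus seen in 2 combination and 2 D2C7-IT tumours, and the third tumour of each group was within or below the vehicle range. Myh11 held 12.6, 6.76 and 10.0 CPM in the combination, 5.17, 7.73 and 8.10 CPM in D2C7-IT, 3.61, 16.6 and 21.6 CPM in αCD40, and 13.7, 3.94 and 7.50 CPM in vehicle. All 4 groups overlapped for Myh11, and it was at 3.61 to 7.50 CPM in the 3 libraries that stand apart.

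Acta2 had the smallest p of the mural genes in D2C7-IT, a difference of -1.25 ± 0.28 (adjusted p = 0.080), and in the combination it differed by -0.75 ± 0.27 (adjusted p = 0.12). Without the 3 libraries that stand apart these differences were -0.53 ± 0.33 (adjusted p = 0.80) and -0.02 ± 0.34 (adjusted p = 0.99), so most of the Acta2 difference came with vehicle replicates 2 and 3. Tagln differed from vehicle by 1.58 ± 0.73 in the combination (adjusted p = 0.19) and by 1.62 ± 0.73 in D2C7-IT (adjusted p = 0.16). Over the 3 contractile genes the median difference in D2C7-IT was -0.26 and the mean 0.04, which differ in sign because Tagln and Acta2 lay on opposite sides. In the combination the median was 0.22 and the mean 0.35. Without the 3 libraries Tagln differed by 1.98 ± 1.21 in the combination and 1.99 ± 1.21 in D2C7-IT. Myh11 was then at -0.46 ± 0.40 and -0.96 ± 0.40, against 0.22 ± 0.50 and -0.26 ± 0.50 with all libraries, so its sign turned in the combination. The contractile medians were then -0.02 in the combination and -0.53 in D2C7-IT, and the means 0.50 and 0.17, with adjusted p of 0.72 to 0.80 for both genes.

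Set against each other, the trios differed more in the combination and D2C7-IT tumours than in vehicle tumours at day 3. The balance, the mean log2 CPM of the 3 pericyte genes minus that of the 3 contractile genes, was 1.61, 0.96 and 1.29 in the combination (mean 1.29 ± 0.33, SD), 1.26, 1.06 and 1.43 in D2C7-IT (1.25 ± 0.18), 0.36, 0.97 and 0.48 in αCD40 (0.61 ± 0.32), and 0.69, 0.67 and 0.17 in vehicle (0.51 ± 0.29). All combination and D2C7-IT tumours were above all vehicle tumours. The pericyte side set this apart: it averaged 4.70 ± 0.11 in the combination, 4.44 ± 0.32 in D2C7-IT, 4.02 ± 0.50 in αCD40 and 3.71 ± 0.19 in vehicle. The contractile side averaged 3.41 ± 0.39, 3.19 ± 0.45, 3.42 ± 0.39 and 3.2 ± 0.11 in the same groups. These means differed by less than the SD of each treated group. The combination and αCD40 means lay further from vehicle than the small SD of vehicle. In D2C7-IT the contractile mean joined opposite differences from vehicle, -1.25 for Acta2 and 1.62 for Tagln. Minus vehicle, the balance was 0.78 in the combination and 0.74 in D2C7-IT, and 0.60 and 0.56 without the libraries that stand apart. With Pdgfrb and Notch3 added to the pericyte side and Des to the contractile side it was 0.33 and 0.30. The larger lists given below did not repeat this order. With all libraries the other contractile genes had the higher median in the combination, and the lists were about level in D2C7-IT. Without the libraries that stand apart, other pericyte markers and other contractile genes had medians of 0.15 and 0.46 in the combination. In D2C7-IT these were -0.18 and 0.10. The balance carries no test, since its genes were chosen with results of these data known.

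At day 0 the balance ordered the groups differently. It was 1.76, 1.18 and 1.45 in the combination (1.46 ± 0.29), 0.42, 0.51 and 0.32 in D2C7-IT (0.41 ± 0.09), 0.88, 1.41 and 1.30 in αCD40 (1.19 ± 0.28), and 1.29, 0.50 and 0.72 in vehicle (0.83 ± 0.41). D2C7-IT was lowest, overlapping vehicle at vehicle's lowest tumour, and it lay below every combination and αCD40 tumour. Here the contractile side parted the groups, at 2.71 ± 0.41 in the combination, 3.70 ± 0.15 in D2C7-IT, 2.91 ± 0.27 in αCD40 and 3.19 ± 0.24 in vehicle, and the high D2C7-IT value came from Tagln. The pericyte side was at 4.18 ± 0.14, 4.12 ± 0.10, 4.10 ± 0.01 and 4.03 ± 0.20, with overlap throughout.

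**Figure D3:**
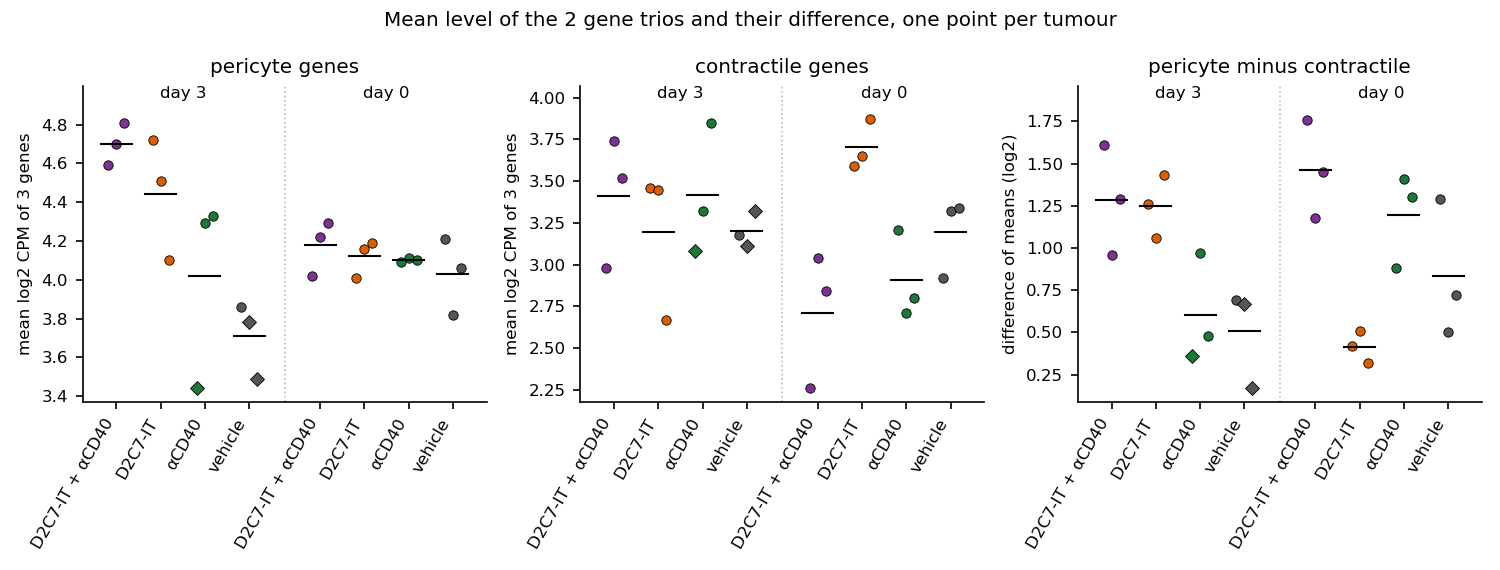
Mean log2 CPM of the pericyte genes (left), of the contractile genes (middle) and their difference (right) in each tumour, by treatment at day 3 and day 0. Bars are means of 3 tumours and diamonds the libraries that stand apart. At day 3 the difference is 0.96 to 1.61 in the combination and 1.06 to 1.43 in D2C7-IT, against 0.17 to 0.69 in vehicle, and at day 0 it is lowest in D2C7-IT at 0.32 to 0.51.

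Pericyte genes were nearly level across treatments at day 0. Abcc9 held 10.3, 13.1 and 14.3 CPM in the combination, 11.7, 13.1 and 13.3 CPM in D2C7-IT, 12.9, 11.6 and 12.2 CPM in αCD40, and 13.9, 7.76 and 12.0 CPM in vehicle. Kcnj8 held 5.02, 4.83 and 5.6 CPM in the combination, 4.10, 4.68 and 5.00 CPM in D2C7-IT, 4.48, 5.11 and 4.86 CPM in αCD40, and 4.21, 4.28 and 3.97 CPM in vehicle. Rgs5 held 81.3, 101 and 92.4 CPM in the combination, 85.7, 91.8 and 89.6 CPM in D2C7-IT, 83.3, 86.3 and 84.4 CPM in αCD40, and 107, 82.4 and 95 CPM in vehicle. Groups overlapped for Abcc9 and Rgs5, and for Kcnj8 the combination and αCD40 tumours lay just above vehicle. Of all genes, 5.45% in the combination and 3.99% in αCD40 lay above vehicle without overlap. The median difference of the trio from vehicle was 0.16, 0.14 and 0.12 in the combination, D2C7-IT and αCD40.

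The endothelial genes lay further from vehicle on that day. The median of the 10 endothelial markers was 0.50 above vehicle in the combination, 0.41 in D2C7-IT and 0.62 in αCD40, and the list was at 4.89 to 5.08, 4.82 to 4.88 and 4.94 to 5.23 mean log2 CPM against 4.41 to 4.65 in vehicle. In the 21 libraries that do not stand apart the medians were 0.50, 0.42 and 0.63. In that fit 3 of the 10 were called in αCD40, beside 0.0384% of all genes, and 0 in the combination or D2C7-IT. The day 0 groups keep all their tumours in that fit. With all 24 libraries none of the 10 was called. The smallest p were those of Cldn5 (0.92 ± 0.16, adjusted p = 0.22) and Pecam1 (0.80 ± 0.15, adjusted p = 0.26) in the combination, Pecam1 (0.68 ± 0.15, adjusted p = 0.11) and Cldn5 (0.61 ± 0.16, adjusted p = 0.30) in D2C7-IT, and Pecam1 (0.91 ± 0.15, adjusted p = 0.063) and Cldn5 (0.99 ± 0.16, adjusted p = 0.063) in αCD40. Whether endothelial and pericyte genes differ from each other in this was not tested.

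Of the mural genes, Tagln set D2C7-IT furthest apart at day 0. It held 1.76, 9.45 and 3.03 CPM in the combination, 14.5, 28.5 and 40.6 CPM in D2C7-IT, 3.76, 3.13 and 4.92 CPM in αCD40, and 4.12, 4.85 and 3.92 CPM in vehicle. All D2C7-IT tumours were above the 9 tumours of the other groups. The same held for Des, at 2.92 to 3.41 CPM in D2C7-IT against 1.71 to 2.74 CPM in those 9. The share of all genes above those 9 was not counted. The difference of D2C7-IT from vehicle was 2.69 ± 0.76 (adjusted p = 0.38) and that of the combination from D2C7-IT was -2.55 ± 0.75 (adjusted p = 1.0), neither past the threshold in edgeR. In D2C7-IT against vehicle, 0 of 10 mural genes were called, beside 0.0808% of all genes, and 1 of 10 had an unadjusted p under 0.05, beside 4.52%. DESeq2 called Tagln alone of the 10 there (adjusted p = 0.030), beside 0.595% of all genes.

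The other contractile genes did not share the Tagln pattern at day 0. Acta2 held 7.73, 7.60 and 11.1 CPM in the combination, 12.5, 10.6 and 10.0 CPM in D2C7-IT, 13.8, 8.85 and 10.0 CPM in αCD40, and 10.8, 14.6 and 16.7 CPM in vehicle. Myh11 held 7.76, 7.60 and 10.7 CPM in the combination, 9.42, 6.53 and 7.60 CPM in D2C7-IT, 15.0, 9.81 and 6.74 CPM in αCD40, and 9.61, 13.8 and 15.4 CPM in vehicle. Both had their highest group mean in vehicle, and for Myh11 all D2C7-IT tumours lay below vehicle. Without overlap, 3 mural genes (Tagln, Anpep and Des) lay above vehicle in D2C7-IT, beside 11% of all genes, and 1 (Myh11) below, beside 6.6%. The median contractile difference in D2C7-IT was -0.34 and the mean 0.54, again of opposite sign. In the combination, Acta2 differed from vehicle by -0.67 ± 0.27 (adjusted p = 1.0), 0 of 10 mural genes were called, beside 0% of all genes, and 1 of 10 had an unadjusted p under 0.05, beside 3.03%.

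Pdgfrb followed the 3 libraries that stand apart. At day 3 it held 31.6 to 33.1 CPM in the combination and 32.1 to 33.8 CPM in D2C7-IT, against 69.0, 33.1 and 34.9 CPM in αCD40 and 27.8, 68.3 and 74.2 CPM in vehicle. At day 0 the lowest and highest were 26.9 and 30.6 CPM in the combination, 28.9 and 31.1 in D2C7-IT, 28.1 and 31.5 in αCD40, and 24.4 and 30.9 in vehicle. Apart from the 3 libraries, then, all 21 tumours were between 24.4 and 34.9 CPM. Against vehicle at day 3, Pdgfrb differed by -0.82 ± 0.28 in the combination (adjusted p = 0.11) and by -0.78 ± 0.28 in D2C7-IT (adjusted p = 0.095). Without the 3 libraries the sign turned, to 0.24 ± 0.13 (adjusted p = 0.72) and 0.27 ± 0.13 (adjusted p = 0.80).

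Fibroblasts also carry Pdgfrb, and their markers moved with it. The 8 fibroblast markers summed to 139 to 270 CPM in the combination, 151 to 207 CPM in D2C7-IT, 214 to 2040 CPM in αCD40 and 154 to 2470 CPM in vehicle at day 3. Against vehicle, 1 of the 8 had a positive difference in either group, with medians of -1.43 in the combination and -1.70 in D2C7-IT (0.46 and 0.27 without the libraries that stand apart), and none of the 8 was at 0 reads in any library. Cspg4, the NG2 proteoglycan of pericytes and glial progenitors, held 74.7 to 80.4 CPM in the 3 libraries and 19.7 to 38.8 CPM in the other 21. The part of fibroblasts or of tumour cells in the Pdgfrb values was not tested.

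**Figure D4:**
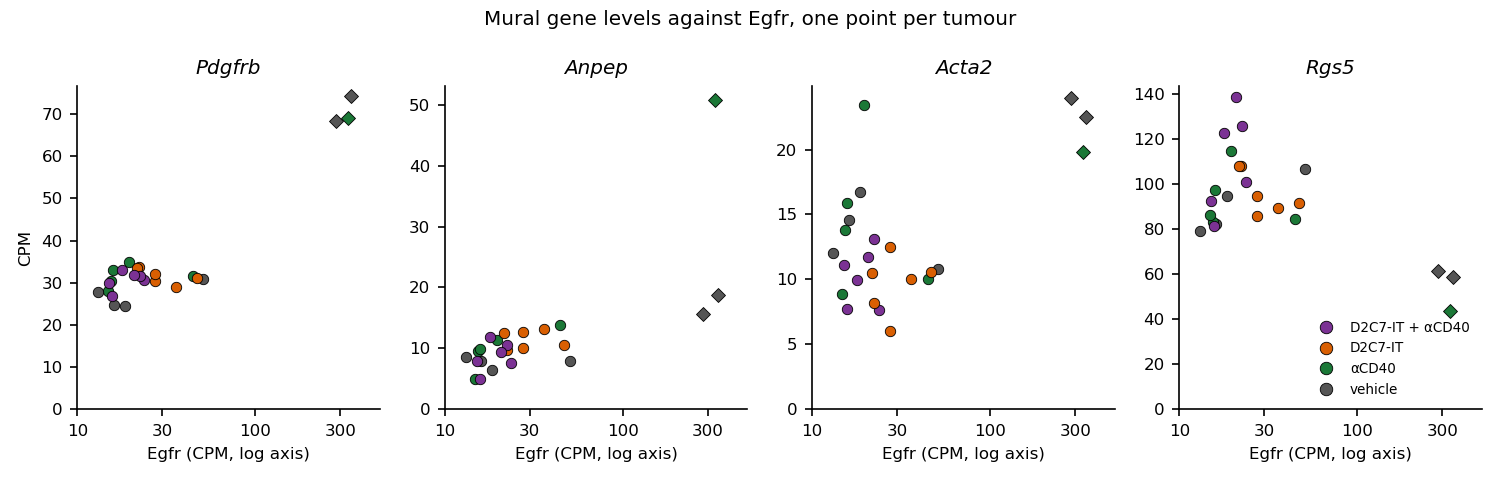
Level of Pdgfrb, Anpep, Acta2 and Rgs5 (CPM, linear axes from 0) against Egfr (CPM, log axis) in each tumour, coloured by treatment. Diamonds are the 3 libraries with Egfr of 283 to 343 CPM. Pdgfrb is at 68.3 to 74.2 CPM in these and at 24.4 to 34.9 CPM in the other 21, while Rgs5 is at 43.8 to 61.5 CPM in them and at 79.1 CPM or more elsewhere.

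Anpep, Notch3 and Des passed no test. Anpep held 9.40 to 11.8 CPM in the combination, 9.77 to 12.7 CPM in D2C7-IT, 9.89 to 50.8 CPM in αCD40 and 8.49 to 18.7 CPM in vehicle at day 3, with the high αCD40 value in the library that stands apart. Its lowest and highest at day 0 were 4.88 and 7.87 CPM in the combination, 9.96 and 13.1 in D2C7-IT, 5.02 and 13.9 in αCD40, and 6.44 and 7.95 in vehicle. The 8 myeloid markers summed to 224 to 474, 199 to 364, 200 to 1780 and 116 to 846 CPM in the combination, D2C7-IT, αCD40 and vehicle at day 3, none of them at 0 reads in any library, and their part in the Anpep values was not tested. Notch3 held 34.9 to 43.0 CPM in the combination, 30.5 to 41.9 CPM in D2C7-IT, 26.4 to 33.6 CPM in αCD40 and 28.1 to 31.1 CPM in vehicle at day 3, and 19.2 to 38.2 CPM over the 12 tumours of day 0. Des stayed within 1.71 to 4.71 CPM in all 24 tumours. Skeletal muscle markers, which would accompany Des from muscle, were at -1.51 to -0.39 mean log2 CPM in all libraries. Of these 8 markers, Tnnc2 was at 0 reads in 3 libraries, so levels this low are a weak guide to muscle.

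αCD40 alone gave few differences from vehicle. At day 3, 0 of 10 mural genes were called against vehicle, beside 0% of all genes, and 1 of 10 (Kcnj8, 0.50 ± 0.22, adjusted p = 1.0) had an unadjusted p under 0.05, beside 1.91%. Its replicate 1, which stands apart, was the lowest of the 3 αCD40 tumours for Abcc9, Kcnj8 and Rgs5. Without that replicate, Rgs5 passed the threshold (0.68 ± 0.14, adjusted p = 0.045), in a fit that called 5.98% of all genes. Without all 3 libraries that stand apart, Kcnj8 was at 0.69 ± 0.28, Rgs5 at 0.45 ± 0.17, Acta2 at 0.73 ± 0.37 and Pdgfrb at 0.31 ± 0.14, each at an adjusted p of 1.0. At day 0, 0 of 10 were called, beside 0% of all genes, and none had an unadjusted p under 0.05, beside 1.36%. Acta2 had the smallest p there (-0.36 ± 0.27, adjusted p = 1.0).

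The combination was set against each agent alone. Against αCD40 at day 3, 0 of 10 were called, beside 0% of all genes, and 5 of 10 had an unadjusted p under 0.05, beside 11.1%. These were Abcc9 (0.73 ± 0.24, adjusted p = 0.37), Kcnj8 (0.55 ± 0.22, adjusted p = 0.42) and Rgs5 (0.59 ± 0.23, adjusted p = 0.42) as higher estimates, and Acta2 (-0.76 ± 0.27, adjusted p = 0.40) and Anpep (-1.19 ± 0.48, adjusted p = 0.42) as lower ones. Without overlap, 4 lay above αCD40 (the pericyte trio and Notch3), beside 4.97% of all genes, and 1 below (Acta2), beside 4.78%. Without the library that stands apart, Anpep was at -0.01 ± 0.31, Rgs5 at 0.28 ± 0.12, Kcnj8 at 0.39 ± 0.20 and Abcc9 at 0.52 ± 0.24, while Acta2 was at -0.76 ± 0.26 and Myh11 at -0.96 ± 0.32 (adjusted p = 0.47 to 1.0). Myh11 had the smallest p then, and with all libraries it was at -0.51 ± 0.50. The contractile median was -0.51 and the mean 0.08, of opposite sign, and -0.76 and 0.04 without that library.

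Against D2C7-IT at day 3, 0 of 10 were called, beside 0% of all genes, and none had an unadjusted p under 0.05, beside 2.44%. Acta2 had the smallest p (0.50 ± 0.27, adjusted p = 1.0). Neither group includes a library that stands apart, but those libraries enter the shared estimate of spread. Without them Rgs5, not Acta2, had the smallest p, at 0.33 ± 0.11 against 0.32 ± 0.23 with all libraries. Against αCD40 at day 0, 0 of 10 were called, beside 0%, and none had an unadjusted p under 0.05, beside 0.884%, with Acta2 again at the smallest p (-0.31 ± 0.27, adjusted p = 1.0). Against D2C7-IT at day 0, 0 of 10 were called, beside 0%, and 2 of 10 had an unadjusted p under 0.05, beside 2.77%. These were Tagln, given above, and Des (-0.61 ± 0.28, adjusted p = 1.0). Without overlap, 3 mural genes (Tagln, Anpep and Des) lay below D2C7-IT, beside 8.53% of all genes, and 0 above, beside 6.07%.

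Between the days within the combination, all 10 mural genes had a higher estimate at day 3. No combination tumour is among the libraries that stand apart, but those libraries enter the shared estimate of spread behind each SE and p. The median difference was 0.54, against -0.01 over all genes. Kcnj8 differed by 0.56 ± 0.22 (adjusted p = 0.94), Abcc9 by 0.52 ± 0.24 (adjusted p = 1.0) and Rgs5 by 0.49 ± 0.23 (adjusted p = 1.0). Fitted without the libraries that stand apart, these genes were at 0.58 ± 0.18, 0.54 ± 0.21 and 0.52 ± 0.11, with smaller SEs. Tagln differed by 1.83 ± 0.74 (adjusted p = 0.94), Notch3 by 0.57 ± 0.22 (adjusted p = 0.94) and Des by 0.64 ± 0.28 (adjusted p = 0.99). None was called, beside 0% of all genes, although 6 of 10 had an unadjusted p under 0.05, beside 4.66%. Among the lists of other cells, endothelial markers had a median of -0.08 between these days (2 of 10 positive) and neuron markers -0.26 (1 of 6). Myeloid markers had 1.11 (8 of 8), choroid plexus markers 0.68 (4 of 4), oligodendrocyte markers 0.41 (5 of 5), fibroblast markers 0.37 (7 of 8) and astrocyte markers 0.18 (3 of 5, with Aqp4 at 0.96 ± 0.29 and Gfap at 1.01 ± 0.43, adjusted p = 0.55 and 0.98). The part of these cells in the mural values was not tested. In 5 mural genes (the pericyte trio, Pdgfrb and Anpep) every day 3 tumour lay above every day 0 tumour, beside 7.07% of all genes, and in 0 below, beside 6.49%.

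In the other treatments no mural gene was called between the days either. In D2C7-IT, 0 of 10 were called, beside 0.00449% of all genes, and 1 of 10 (Kcnj8, 0.46 ± 0.22, adjusted p = 1.0) had an unadjusted p under 0.05, beside 3.51%. In αCD40, 0 of 10 were called, beside 0.0583%, and 3 of 10 had an unadjusted p under 0.05, beside 11.6%: Acta2 (0.85 ± 0.27, adjusted p = 0.42), Pdgfrb (0.61 ± 0.28, adjusted p = 0.42) and Anpep (1.34 ± 0.48, adjusted p = 0.42). Without the αCD40 library that stands apart, Acta2 was at 0.86 ± 0.26, Pdgfrb at 0.19 ± 0.10 and Anpep at 0.17 ± 0.31, while Myh11 was at 0.87 ± 0.32 and Rgs5 at 0.34 ± 0.12 (0.41 ± 0.50 and 0.01 ± 0.23 with it), at adjusted p of 0.69 to 1.0. In vehicle, 0 of 10 were called, beside 0%, and 2 of 10 had an unadjusted p under 0.05, beside 30.2%, namely Pdgfrb (1.09 ± 0.28, adjusted p = 0.11) and Rgs5 (-0.51 ± 0.23, adjusted p = 0.14). DESeq2 called Pdgfrb alone of the 10 in vehicle (adjusted p = 0.020), beside 12% of all genes. Without vehicle day 3 replicate 1, edgeR put Pdgfrb (1.41 ± 0.21, adjusted p = 0.0085), Acta2 (0.72 ± 0.26, adjusted p = 0.035) and Rgs5 (-0.66 ± 0.25, adjusted p = 0.045) past the threshold, in a fit that called 41.1% of all genes. Without vehicle day 3 replicates 2 and 3 instead, Pdgfrb was at 0.05 ± 0.13, Rgs5 at -0.27 ± 0.16 and Acta2 at -0.23 ± 0.34 (0.47 ± 0.27 with all libraries), each at an adjusted p of 1.0.

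Whether an effect against vehicle differed between the days was tested directly. For the combination, Rgs5 had the smallest p, with an effect larger by 1.00 ± 0.32 at day 3 (adjusted p = 0.55). Abcc9 (0.79 ± 0.35) and Kcnj8 (0.74 ± 0.31) pointed the same way and Pdgfrb (-0.95 ± 0.39) the other, all at an adjusted p of 0.55. None of the 10 was called, beside 0% of all genes, and these 4 had an unadjusted p under 0.05, beside 8.05%. For D2C7-IT, Rgs5 (0.73 ± 0.32), Acta2 (-0.90 ± 0.39) and Pdgfrb (-0.95 ± 0.39) had an unadjusted p under 0.05, beside 17.6% of all genes, each at an adjusted p of 0.28, and 0 of 10 were called, beside 0%. Without vehicle day 3 replicate 1, Acta2 (-1.15 ± 0.35, adjusted p = 0.042) and Pdgfrb (-1.28 ± 0.29, adjusted p = 0.041) passed the threshold there, in a fit that called 16.1% of all genes. Without the libraries that stand apart, Pdgfrb turned to 0.12 ± 0.16 in the combination and 0.09 ± 0.16 in D2C7-IT, and Acta2 in D2C7-IT was at -0.20 ± 0.41. The pericyte genes were then at 0.66 ± 0.37 (Abcc9), 0.77 ± 0.32 (Kcnj8) and 0.79 ± 0.19 (Rgs5) in the combination, and Rgs5 at 0.48 ± 0.19 in D2C7-IT, at adjusted p of 0.98 to 1.0. For αCD40, 0 of 10 were called, beside 0%, none had an unadjusted p under 0.05, beside 1.22%, and Rgs5 had the smallest p (0.53 ± 0.32, adjusted p = 1.0). Without the libraries that stand apart, Rgs5 was at 0.61 for αCD40, and Acta2 at 1.09 against 0.38 with all libraries.

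Across tumours the pericyte genes varied together, while Tagln ran apart from the other contractile genes. Over the 21 tumours of low Egfr, Spearman's rho of log2 CPM was 0.76 between Abcc9 and Rgs5, 0.68 between Abcc9 and Kcnj8 and 0.68 between Kcnj8 and Rgs5. Acta2 and Myh11 correlated at 0.81 in these tumours and at 0.30 over all 24. Tagln was negatively correlated with Myh11 (-0.59) and weakly with Acta2 (-0.26), and it followed Des at 0.73. Pdgfrb followed the pericyte trio at 0.59 to 0.73 in these 21 tumours and at 0.10 to 0.20 over all 24. Between the trios the values lay between -0.33 and 0.37. These correlations are descriptions over tumours of 8 groups, which share treatment and scaling.

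**Figure D5:**
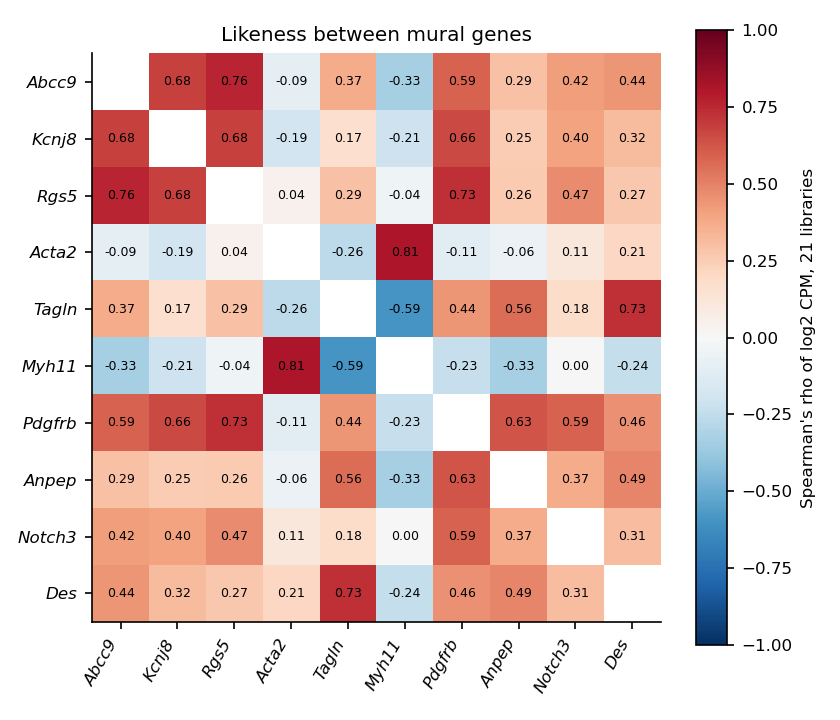
Spearman's rho of log2 CPM between each pair of the 10 mural genes over the 21 tumours without the libraries that stand apart, from -1 (blue) to 1 (red). The pericyte trio forms a block at 0.68 to 0.76 that Pdgfrb joins at 0.59 to 0.73, Acta2 pairs with Myh11 at 0.81, and Tagln pairs with Des at 0.73.

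The genes most like each member were searched among 14453 genes with a mean of at least 1 CPM, over all 24 tumours. Kcnj8 was most like Acer2, a ceramidase (rho 0.88), Wnt9b, a Wnt ligand (0.85), and Esrrb, an orphan nuclear receptor (0.82). Abcc9 was most like Wnt9b (0.86), the potassium channel Kcnk13 (0.84) and the laminin chain Lama5 (0.83), so Wnt9b was near the top for both channel partners. Rgs5 was most like Enpep, an aminopeptidase of the angiotensin pathway (0.88), Il17rb, an interleukin receptor (0.88), and Car2, a carbonic anhydrase (0.80). Without the libraries that stand apart each of these values was lower, from 0.69 (Rgs5 with Car2) to 0.86 (Kcnj8 with Acer2).

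The contractile genes had different neighbours. Acta2 was most like Ogn, a matrix proteoglycan (0.86), and the sterol synthesis genes Erg28 and Fdps (0.82 each). Tagln was most like Fgfr4, a fibroblast growth factor receptor (0.89), Hbegf, a growth factor of the EGF family (0.87), and Cebpd, a transcription factor of acute inflammation (0.86). Myh11 was most like Bcan, a brain matrix proteoglycan (0.94), Cntfr, the receptor of ciliary neurotrophic factor (0.93), and Btbd17 (0.92). No gene was named for more than 1 of the 3 contractile genes. These values too were lower without the libraries that stand apart, from 0.73 (Acta2 with Fdps) to 0.92 (Myh11 with Bcan).

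Further mural genes were taken as lists. Of 16 other pericyte markers, 0 were called against vehicle at day 3 in the combination (10 of 16 positive, median 0.29) or in D2C7-IT (9 of 16 positive, median 0.11), where the medians over all genes were 0.01 and 0.02. Tbx18, a transcription factor of mural cells and fibroblasts, had the smallest p in both, at 3.38 ± 1.52 CPM in the combination and 2.34 ± 0.242 in D2C7-IT against 13.0 ± 8.37 in vehicle (-1.95 ± 0.53 and -2.47 ± 0.54, adjusted p = 0.11 and 0.080). Second was Art3, a surface enzyme enriched in brain pericytes, in the combination (4.98 ± 1.12 against 2.71 ± 0.514 CPM in vehicle, 0.87 ± 0.25, adjusted p = 0.11). In D2C7-IT it was Cspg4 (24.6 ± 5.78 against 61.2 ± 28.5 CPM in vehicle, -1.31 ± 0.35, adjusted p = 0.080). In the 21 libraries that do not stand apart the list medians were 0.15 and -0.18. Tbx18 was then at 0.03 ± 0.43 in the combination and -0.51 ± 0.42 in D2C7-IT, Cspg4 at -0.19 ± 0.27 in D2C7-IT and Art3 at 1.18 ± 0.37 in the combination, none called.

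Of 15 other contractile genes, 0 were called in the combination (11 of 15 positive, median 0.56) or in D2C7-IT (8 of 15 positive, median 0.09) at day 3. Cald1, the actin regulator caldesmon, had the smallest p in both, at 52.8 ± 5.42 CPM in the combination and 40.0 ± 2.25 in D2C7-IT against 266 ± 200 in vehicle (-2.33 ± 0.73 and -2.73 ± 0.74, adjusted p = 0.11 and 0.080). Next were Mustn1, a small muscle protein, in the combination (4.10 ± 1.19 against 1.55 ± 0.153 CPM in vehicle, 1.40 ± 0.51, adjusted p = 0.12) and Cnn1, or calponin, in D2C7-IT (1.62 ± 1.01 against 0.507 ± 0.246 CPM in vehicle, 1.67 ± 0.53, adjusted p = 0.084). Of the 4 factors that drive contractile genes (Srf, Myocd, Mrtfa and Mrtfb) none was called, and their medians were 0.03 in the combination and 0.45 in D2C7-IT. Myocd, the coactivator of smooth muscle, was at 0.316 ± 0.174 and 0.339 ± 0.237 CPM against 0.124 ± 0.13 CPM in vehicle (1.36 ± 0.76 and 1.47 ± 0.76, adjusted p = 0.28 and 0.21). After Myocd came Srf in the combination (-0.35 ± 0.21, adjusted p = 0.31) and Mrtfb in D2C7-IT (0.68 ± 0.39, adjusted p = 0.26). Without the libraries that stand apart the medians of the 15 contractile genes were 0.46 and 0.10 and those of the 4 factors -0.20 and 0.14. Cald1 then turned to 0.60 ± 0.34 in the combination and 0.19 ± 0.33 in D2C7-IT, and Mrtfb to -0.08 ± 0.31. Mustn1 was at 1.38 ± 0.80 in the combination, Cnn1 at 1.20 ± 0.68 in D2C7-IT, and Myocd at 0.25 ± 0.93 and 0.35 ± 0.93, none called.

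The signals that recruit mural cells were read from 19 ligands and receptors, of which 0 were called at day 3 in the combination (10 of 19 positive, median 0.12) or in D2C7-IT (8 of 19 positive, median -0.21). Jag1, a ligand of Notch3, was at 9.84 ± 1.21 CPM in the combination and 8.96 ± 0.342 in D2C7-IT against 55.1 ± 40.6 in vehicle (-2.48 ± 0.77 and -2.62 ± 0.77, adjusted p = 0.11 and 0.080). Tgfb2, a growth factor, had the smallest p in the combination (21.7 ± 2.4 against 12.4 ± 1.47 CPM in vehicle, 0.81 ± 0.21, adjusted p = 0.11). Angpt1, the mural ligand of the endothelial receptor Tek, came second in D2C7-IT (5.15 ± 1.32 against 13.4 ± 5.49 CPM in vehicle, -1.38 ± 0.42, adjusted p = 0.080). The wide SDs of Jag1, Cald1 and Tbx18 in vehicle belong to a group in which 2 of the 3 libraries stand apart. Without those libraries Jag1 was at 0.12 ± 0.41 in the combination and -0.03 ± 0.41 in D2C7-IT, Angpt1 at -0.45 ± 0.45 in D2C7-IT and Tgfb2 at 0.66 ± 0.29 in the combination, and the list medians were 0.58 and 0.30, none called.

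At day 0 the same list had 14 of 19 positive differences in D2C7-IT (median 0.12), 0 called. Angpt2, an antagonist of Tek in vessel remodelling, was at 4.14 ± 0.568 CPM in D2C7-IT against 1.49 ± 0.225 in vehicle (1.47 ± 0.38, adjusted p = 0.30). S1pr3, a sphingosine 1-phosphate receptor of mural and other cells, was at 61.6 ± 10.7 CPM against 15.5 ± 5.17 (1.99 ± 0.68, adjusted p = 0.69). Neither passed the test.

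Of 5 Notch target genes, 0 were called at day 3 in the combination (4 of 5 positive, median 0.33) or in D2C7-IT (3 of 5 positive, median 0.23). Hey2 had the smallest p in both (0.76 ± 0.37 and 0.68 ± 0.37, adjusted p = 0.22 and 0.23), followed by Heyl in the combination (1.21 ± 0.64, adjusted p = 0.26) and Hey1 in D2C7-IT (0.36 ± 0.28, adjusted p = 0.41). In the 21 other libraries Hey2 was at 0.08 ± 0.34 and -0.01 ± 0.34, Heyl at 0.59 ± 0.83 in the combination and Hey1 at -0.24 ± 0.20 in D2C7-IT, with list medians of 0.08 and -0.24. The partners of the other potassium channel of this family, Kcnj11 and Abcc8, which neurons use, gave 0.67 ± 0.42 and 0.63 ± 0.48 in the combination (adjusted p = 0.33 and 0.42) and 1.00 ± 0.42 and 0.90 ± 0.48 in D2C7-IT (adjusted p = 0.13 and 0.22). In the 21 other libraries they were at -0.01 and 0.04 in the combination and 0.30 and 0.30 in D2C7-IT. Of 5 relatives of Acta2, 4 were tested and 0 called, with medians of -0.12 in the combination and -0.34 in D2C7-IT. Acta1, the skeletal muscle actin, was among the 2 of smallest p in both (1.07 ± 0.50 and 1.32 ± 0.50, adjusted p = 0.20 and 0.11), beside the cytoplasmic actins Actg1 in the combination (-0.61 ± 0.26, adjusted p = 0.17) and Actb in D2C7-IT (-0.60 ± 0.32, adjusted p = 0.22). In the 21 other libraries all 5 were tested, the medians were 0.50 and 0.19, and Acta1 was at 0.50 ± 0.59 and 0.73 ± 0.60, Actg1 at -0.03 ± 0.22 and Actb at 0.19 ± 0.22.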

How the data were processed

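The authors deposited 6 tables of whole-number read counts per gene, not normalized, holding 36 columns for 24 tumours, of which 12 repeat another column without any difference. Tools listed in the submitters' processing notes are STAR 2.5.2b, Trimmomatic 0.36, bcl2fastq 2.17 and featureCounts (Subread 1.5.2), with the build GRCm38. The annotation, strand setting and handling of reads with several matches were not given in the sources used here. Per the labels' protocols, RNA was enriched with oligo(dT) and made into libraries with the NEBNext Ultra kit. Columns were matched to tumours by number, and gene names, positions and exon lengths came from GENCODE M21. Library totals were 24.7 to 48.1 M counts, and no 2 replicates agreed within sampling noise (chi-square per degree of freedom at least 31.2).

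In R 4.3.3, edgeR 4.0.16 was fitted to all 24 libraries with a mean per group (filterByExpr, 22280 genes; TMM library sizes; quasi-likelihood F test, 16 residual degrees of freedom; common biological coefficient of variation 0.41). P-values were adjusted by the Benjamini-Hochberg method over all genes in each of 17 comparisons and called under 0.05. The script was checked on simulated counts. Log2 CPM use a prior count of 2, and RPKM use the length of all exons of a gene. Motifs were sought in the RefSeq promoters (GRCm38.p6), and 250 bases before the start were used.

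The members and the lists were chosen with earlier results of these data known. All 10 members are reported. In a comparison, fold changes are given for members of unadjusted p under 0.05 and the member of smallest p. From other lists the 2 genes of smallest p are named. The genes most like a member are the 3 of highest Spearman correlation. Lists were described for the combination and D2C7-IT against vehicle at day 3, and for endothelial and recruitment genes also at day 0. Gm48529, Cspg4 and the choroid plexus markers were singled out after their values were seen. Alternatives were DESeq2 1.42.0, RLE scaling, no filter, only the groups compared, a replicate block, each replicate left out, and, added after the data were seen, leaving out 3 libraries.

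Replicate numbers were checked for pairing across groups. Same-numbered tumours did not deviate together, so no block was used.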

Additional observations from a re-analysis of the deposited data

How the results depend on the processing

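No mural gene was called in any of the 17 comparisons with edgeR, and this held with RLE scaling, without the filter on low counts, with only the groups compared and without the 3 libraries that stand apart. With the replicate block the number called was 0 in each comparison as well. Of 84 same-numbered pairs of tumours, 29 had a correlation of deviations over 0.1 (lowest -0.91, highest 0.51), and 5 of 24 tumours were closest to their own number, so the numbers pair nothing.

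DESeq2 called 3 members in the combination and 3 in D2C7-IT against vehicle at day 3, 1 in D2C7-IT against vehicle at day 0 and 1 in vehicle at day 3 against day 0, and 0 in the other 13 comparisons. Leaving out 1 replicate gave 0 to 5 called members for the combination and 0 to 5 for D2C7-IT against vehicle at day 3, 0 to 1 for αCD40 against vehicle at day 3, 0 to 3 for vehicle between days and 0 to 2 for the day difference of the D2C7-IT effect. The counts of 5, 5, 3 and 2 came when vehicle day 3 replicate 1 was left out, and the 1 when αCD40 day 3 replicate 1 was. The cause was not tested. Without the libraries that stand apart, Pdgfrb turned to 0.27 in D2C7-IT and 0.24 in the combination against vehicle at day 3, and to 0.09 and 0.12 in the day differences of those effects.

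The balance minus that of vehicle at day 3 was 0.78 in the combination and 0.74 in D2C7-IT. With wider sides (Pdgfrb and Notch3 added to the pericyte genes, Des to the contractile ones) it was 0.33 and 0.30. Without the libraries that stand apart it was 0.60 and 0.56. The larger lists of other pericyte markers and other contractile genes did not repeat this order in the combination.

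Each group has 3 tumours, the αCD40 dose per tumour is not given, and whole tissue mixes mural cells with tumour, brain and fibroblasts. Tagln, Notch3 and Des share exon bases with antisense genes, and strand is not marked.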
